A study of Caenorhabditis elegans with 12 samples.

Results

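Young adult hermaphrodites carrying the *n836* allele of *lin-29* were compared with wild-type young adults across all genes of a whole-animal RNA-seq experiment in *Caenorhabditis elegans*. The comparison took the 3 *lin-29* and the 3 wild-type libraries by their labels, 6 of the 12 libraries. The other libraries were 3 of *mab-10(tm2497)* and 3 of *ddx-23(n5705)* mutants, which set the *lin-29* values beside those of other mutants. They also count in the gene filter and share in the estimate of spread behind every test of *lin-29* against wild type. The wild-type strain was VT1367 and the *lin-29(n836)* strain was MT24358, and both carried the transgene *maIs105*, a *col-19::gfp* reporter of adult hypodermis, as did the *mab-10* strain MT19733 and the *ddx-23* strain MT23825. Each genotype was thus 1 allele in 1 strain, and the 3 replicates of each were biological replicates of hand-picked animals, pooled whole (200 in total), so p-values measure the spread between these pools.

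LIN-29 is a zinc finger transcription factor at the end of the heterochronic pathway, the cascade of regulators that times larval cell fates in *C. elegans*. It acts in the hypodermis, the epithelium that makes the cuticle, at the change from larva to adult. At that change the seam cells, which are hypodermal stem cells, leave the cell cycle, fuse with each other and make the ridges called adult alae, and the molting cycle ends. MAB-10 is a transcriptional co-factor of LIN-29, and DDX-23 is a DEAD-box RNA helicase of the spliceosome.

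Levels are given as log2(FPKM + 1). FPKM scales the fragments assigned to a gene by its transcript length and by the size of the library. A level of 0 means no assigned fragment. A difference of 1 is close to a 2-fold change in FPKM for genes well above 1 FPKM. For lower genes the same difference stands for a larger ratio of FPKM. Differences are means of 3 *lin-29* libraries minus means of 3 wild-type libraries. SE is the standard error of a difference from limma, a linear model fitted over all tested genes, and adjusted p is its Benjamini-Hochberg value over the 14199 genes with at least 1 FPKM in at least 3 libraries. A gene was called where the adjusted p was under 0.05 and the difference over 1 in either direction. For lists of genes, "higher" and "lower" count the members at an adjusted p under 0.05 of any size, and list medians are over the tested members. By that count 16.3% of all tested genes were higher and 2.73% lower, which is the scale for each list. Because whole animals were measured, fewer cells of a type and less RNA per cell cannot be told apart.

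The adult cuticle collagen *col-19*, whose transcription depends on LIN-29, read 9.01, 8.76 and 7.01 in wild-type replicates 1 to 3 and 4.15, 4.42 and 4.34 in the *lin-29* libraries. The groups did not overlap, and *col-19* fell by 3.96 (SE 0.49, limma adjusted p = 0.000297). The RNA of *lin-29* itself was not lower in the mutants, with 1.90, 2.0 and 2.13 in wild type and 3.27, 2.85 and 3.25 in *lin-29* libraries. It rose by 1.11 (SE 0.18, adjusted p = 0.00178), so its level does not check the labels, and the nature of *n836* is not given in the sources used here. That call was lost under quantile normalization (adjusted p = 0.191). It was also lost with the higher-numbered libraries alone, which hold 1 wild-type library and gave a difference of 0.92.

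The 12 libraries carry numbers in a lower and a higher range. The higher range holds wild-type replicate 3 and replicates 2 and 3 of the *lin-29* and *mab-10* mutants. All other libraries, with every *ddx-23* library, are in the lower range. What the numbers stand for is not stated, and the split was made with the values in view. Wild-type replicates 1 and 2 correlated with each other at Pearson r = 0.991 across genes and with wild-type replicate 3 at 0.960 and 0.961. *lin-29* replicates 2 and 3 correlated at 0.984, against 0.963 and 0.960 with *lin-29* replicate 1. Values within each number range are therefore given beside pooled differences where they matter. The lower range holds 1 *lin-29* library and the higher range 1 wild-type library. Tests and counts within 1 range therefore carry no replicate spread for that genotype. Read totals were not given, and the step between low FPKM values put the relative depth of the 6 libraries between 0.903 and 1.1.

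The *lin-29* mutants showed far more increases than decreases. In all, 1577 genes were called higher (11.1% of tested genes) and 120 lower (0.845%), so 92.9% of the calls were increases. At an adjusted p under 0.05 of any size, 2320 genes were higher (16.3%) and 388 lower (2.73%). The lowest *lin-29* library lay above the highest wild-type library in 3423 genes (24.1%), and the highest *lin-29* library lay below the lowest wild-type library in 811 (5.71%). Among called genes the groups did not overlap in 1492 of the 1577 and in 116 of the 120, which the calling from the same libraries favours.

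The median difference was 1.81 among genes called higher and -1.62 among genes called lower, and these values include a median difference of 0.19 over all tested genes. There were 661 increases over 2, 273 over 3 and 61 over 5, against 42 decreases beyond -2 and 20 beyond -3. The genes called higher held 1.41%, 1.25% and 2.18% of the FPKM summed over tested genes in the wild-type libraries and 6.07%, 8.85% and 9.38% in the *lin-29* libraries. The genes called lower held 3.22%, 2.99% and 1.77% in wild type and 0.536%, 0.505% and 0.480% in *lin-29* libraries.

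The median over all tested genes was 0.03 after scaling by the median ratio between libraries and -0.14 after quantile normalization. Changes are therefore read against the 0.19. With quantile normalization 967 genes were called higher and 474 lower, and increases made up 67.1% of the calls. Within the lower-numbered libraries the genes called higher had a median difference of 1.53, within the higher-numbered libraries 1.71, and 1576 of the 1577 were above 0 in both. All 120 genes called lower were below 0 in both ranges. The calls were made on these same libraries, so a shared sign is largely fixed by the selection. With each wild-type or *lin-29* library left out in turn, 1017 of the 1577 and 73 of the 120 were called every time. The number called lower was 189 without wild-type replicate 3.

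**Figure D1:**
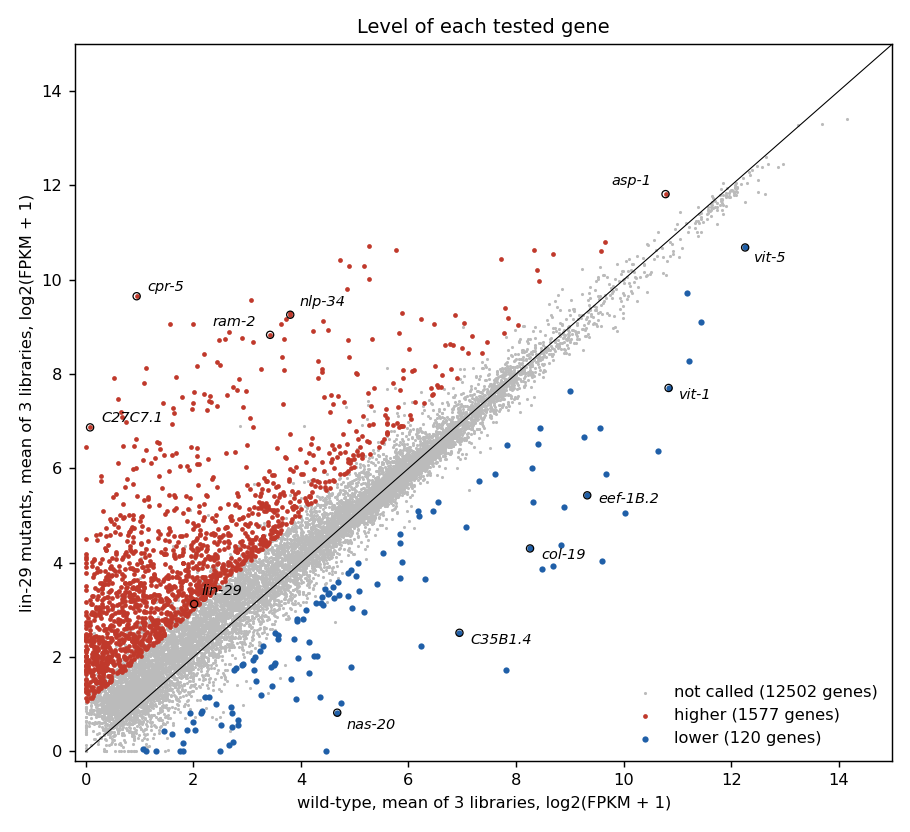
Mean log2(FPKM + 1) of the 3 wild-type libraries (horizontal axis) against the 3 *lin-29* libraries (vertical axis), 1 point per tested gene, with the 1577 genes called higher and the 120 called lower in colour. Called increases reach down to genes near 0 in wild type, and the largest, *cpr-5*, stands at the upper left.

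Leaving out cuticle collagens and genes related to hedgehog or Patched, 1455 genes were called higher and 101 lower, and these are described here. With those families counted, genes of at least 100 FPKM in either group had 107 increases and 12 decreases.

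The largest increase was in *cpr-5*, which encodes a cysteine protease of the cathepsin B family. It read 0.57, 1.37 and 0.90 in the wild-type libraries and 9.72, 9.75 and 9.48 in the *lin-29* libraries. Mean FPKM went from 0.977 to 806, and the difference was 8.71 (SE 0.23, limma adjusted p = 3.82e-09). All 3 *lin-29* libraries were far above all wild-type libraries, and both number ranges gave the same size, 8.75 and 8.72. Its difference from the same wild-type libraries was 6.83 for *mab-10* and -0.30 for *ddx-23* mutants, and *lin-29* mutants were above *mab-10* mutants by 1.87 (adjusted p = 0.000431).

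Several of the next largest increases were in genes without a given name. *C27C7.1* read 0.11, 0.00 and 0.12 in wild type and 7.15, 6.73 and 6.74 in *lin-29* libraries, an increase of 6.79 (adjusted p = 1.15e-07). Its difference in *mab-10* mutants was 6.73, and the contrast between both mutants gave 0.06 (SE 0.25, adjusted p = 0.918). *F59C6.18* read 0.44, 1.04 and 0.50 against 6.71, 7.22 and 7.65, with an increase of 6.54 and an excess of 5.12 over *mab-10* mutants (adjusted p = 1.54e-05). *C38D9.2* (+6.41), *F57H12.6* (+6.26), *K01D12.9* (+6.24), *Y48G8AL.12* (+5.95), *C02E7.7* (+5.84) and *Y47D7A.13* (+5.81) all passed 100 FPKM in *lin-29* libraries.

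Named genes with increases of this size came from several protein classes. The serine carboxypeptidase gene *ctsa-1.2* read 2.88, 3.06 and 1.52 in wild type and 8.15, 8.34 and 8.12 in *lin-29* libraries, a rise of 5.71 (SE 0.32, adjusted p = 1.51e-06). *tag-297* rose by 5.69, from between 0.58 and 1.37 to between 5.88 and 7.19. The ligand-gated ion channel gene *lgc-21* read 0.60, 0.38 and 0.51 against 4.82, 5.23 and 6.11 and rose by 4.89 (adjusted p = 9.85e-05). For each of them the *lin-29* libraries lay above every wild-type library. *ram-2*, a gene known from male ray development, read 3.55, 2.82 and 3.91 against 8.12, 9.01 and 9.37 and rose by 5.41 (adjusted p = 4.26e-06).

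Some of the increases were in genes at or near silence in wild type. Of the 1577 genes called higher, 118 had at most 0.5 FPKM in every wild-type library and at least 2 FPKM in every *lin-29* library, 110 of them outside the collagen and hedgehog-related groups, and 25 were listed at 0 in all 3 wild-type libraries. These genes were picked by their levels in both groups, and a gene of this kind can pass the filter on low values through the *lin-29* libraries alone, so their number is a description. *Y105C5A.13* was at 0.00 in all wild-type libraries and at 7.42, 6.41 and 5.56 in *lin-29* libraries. *B0507.8* read 0.33, 0.16 and 0.45 against 4.69, 5.41 and 5.22. The opposite pattern, on in wild type and off in the mutant, was met by 4 genes, the collagen genes *bli-6* and *col-175* and the histone genes *his-45* and *his-58*.

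Matrix proteins of the molt rose as a group. Each larval molt builds a new cuticle under a transient precuticle made of zona pellucida proteins, leucine-rich repeat proteins and lipocalins, and adults normally no longer make it. Of the 24 tested molting and precuticle matrix genes 20 were higher and none lower, with a median difference of 2.44 against 0.19 over all tested genes. The median was 2.45 within the lower-numbered and 1.78 within the higher-numbered libraries. Between 16 and 21 members were higher with 1 library left out, and quantile normalization gave 16 higher and 1 lower.

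*mlt-8*, needed for molting, read 2.55, 2.24 and 4.38 in wild type and 6.20, 7.39 and 7.60 in *lin-29* libraries, an increase of 4.01 (SE 0.56, limma adjusted p = 0.000608). Wild-type replicate 3 was well above the other wild-type libraries, and still below every *lin-29* library. The lipocalin gene *lpr-4*, whose family shapes the apical matrix, read 1.07, 0.79 and 2.55 against 4.66, 4.66 and 5.75, an increase of 3.56 (adjusted p = 0.000599). *mlt-11*, a protease inhibitor of the molt, rose by 2.76 and *mlt-9* by 3.63. The 7 tested *lpr* genes, a group chosen after its values were seen, had 6 members higher. The 4 tested members of the molting-defective family that includes *mlt-10* were all higher, with *mlt-10* at 2.47, 2.26 and 2.49 in wild type and 3.51, 5.71 and 5.46 in *lin-29* libraries (+2.49). The call on *mlt-10* was lost without *lin-29* replicate 2 or 3.

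Regulators and enzymes of molting rose less uniformly. Of 26 tested molting regulators 11 were higher and none lower (median 0.72), and 17 were higher without *lin-29* replicate 1. *acn-1*, which encodes a protein like angiotensin-converting enzyme without its active site, read 2.31, 2.41 and 3.19 against 4.43, 5.48 and 5.81 and rose by 2.60 (adjusted p = 0.000926). *mlt-3* rose by 2.17. *grh-1*, a Grainyhead transcription factor of epidermal barriers, rose by 1.93 and the nuclear receptor gene *nhr-85* by 1.63. Of the astacin metalloproteases, a family that includes enzymes of cuticle shedding and collagen maturation, 14 of 25 were higher and 1 lower. *nas-38* read 0.30, 0.25 and 0.33 in wild type and 3.20, 3.68 and 3.82 in *lin-29* libraries, an increase of 3.27 (adjusted p = 2.71e-05), and *nas-30* rose by 3.21.

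**Figure D2:**
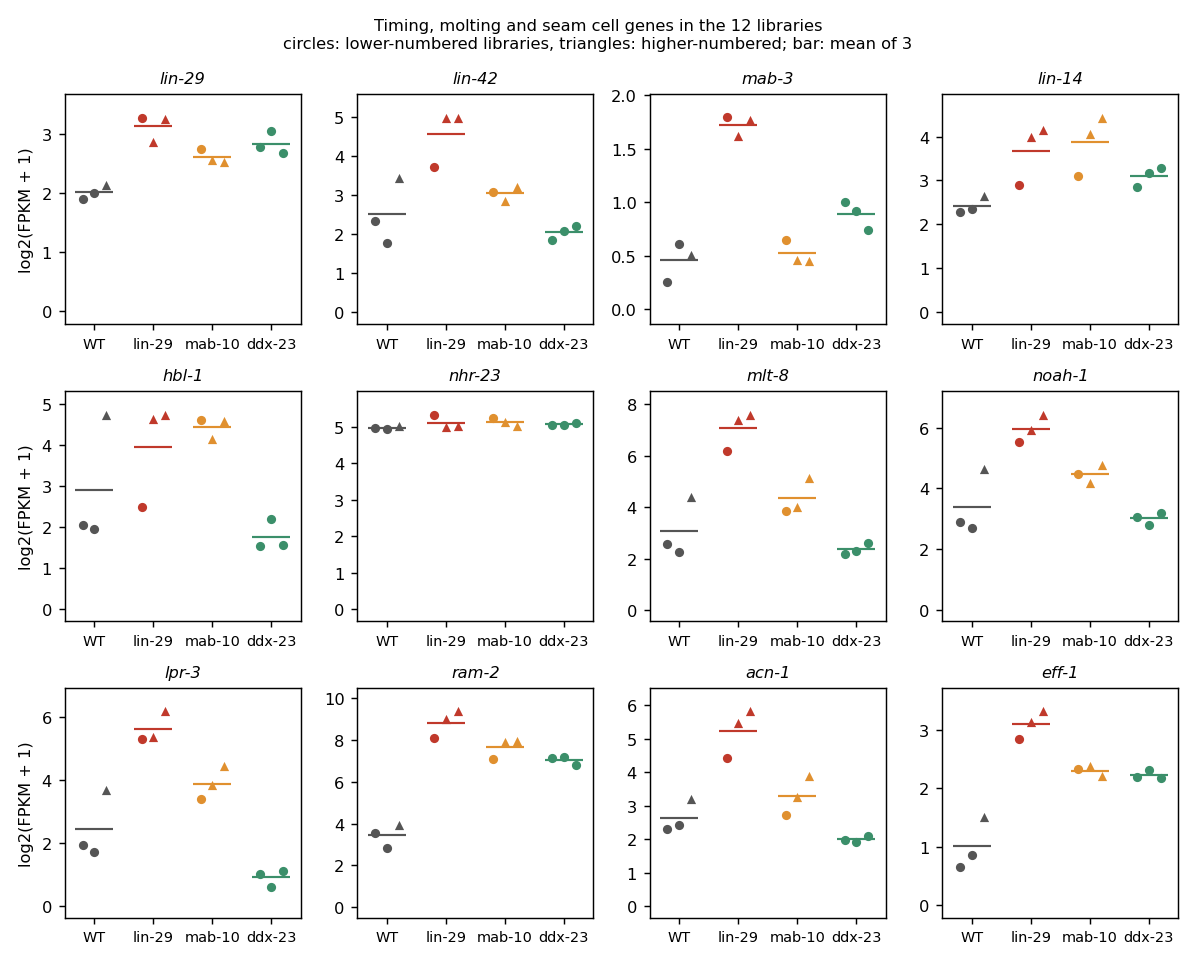
Levels, log2(FPKM + 1), of heterochronic, seam cell and molting genes in the 12 libraries by genotype, with circles for lower-numbered and triangles for higher-numbered libraries and a bar at the mean of 3. *mlt-8*, *acn-1* and *eff-1* lie above every wild-type library in all *lin-29* libraries, and for *hbl-1* the groups overlap, with wild-type replicate 3 as high as *lin-29* replicates 2 and 3.

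Genes of the heterochronic pathway itself differed in part. Of 24 tested members 8 were higher and none lower (median 0.49). *lin-42*, the homolog of *period* that cycles with the molts, read 2.34, 1.77 and 3.43 in wild type and 3.71, 4.96 and 4.97 in *lin-29* libraries, an increase of 2.03 (SE 0.42, limma adjusted p = 0.00649). *mab-3*, a DM domain transcription factor gene, rose by 1.27, from between 0.25 and 0.61 to between 1.62 and 1.79. The others that passed were *lin-14* (+1.25), *lin-29*, *sea-2* (+1.04), *apl-1* (+0.89), *mab-10* (+0.79) and *alg-2* (+0.48). Of these *mab-10*, the LIN-29 co-factor gene, read 2.16, 2.03 and 2.72 against 3.03, 3.02 and 3.23 (adjusted p = 0.0238). The *mab-10* call was lost in 7 of the alternatives, among them when any 1 of wild-type replicates 1 and 2 and *lin-29* replicates 2 and 3 was left out, and under quantile normalization the difference was 0.13 (adjusted p = 0.598). The *lin-14* call (adjusted p = 0.0393) was lost in 12 alternatives, including the omission of the same libraries, of *mab-10* replicate 2 or of any *ddx-23* library. With the lower-numbered libraries alone, which hold 1 *lin-29* library, the *lin-14* difference was 0.58. The *apl-1* and *alg-2* calls were also lost when any 1 of those 4 wild-type and *lin-29* libraries was left out, and the *apl-1* call without any 1 *ddx-23* library.

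The timing gene *hbl-1*, which opposes late fates, was not called. It read 2.06, 1.95 and 4.75 in wild type and 2.48, 4.65 and 4.73 in *lin-29* libraries (+1.03, adjusted p = 0.346). Within these 6 libraries its level followed the number range, and without wild-type replicate 3 the difference was 1.95 (adjusted p = 0.0291). With the higher-numbered libraries alone it was -0.06. *lin-28* (-0.04) and *lin-41* (-0.12), which act earlier in the cascade, lay close to wild type. The count of 8 higher members was 4 when any 1 of wild-type replicates 1 and 2 and *lin-29* replicates 2 and 3 was left out, and 15 without wild-type replicate 3.

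Seam cell genes gave 6 higher and no lower member among 22 tested (median 0.51), against 16.3% higher over all tested genes. *eff-1*, the fusogen that joins epidermal cells, read 0.66, 0.86 and 1.51 in wild type and 2.84, 3.13 and 3.31 in *lin-29* libraries and rose by 2.08 (SE 0.23, limma adjusted p = 0.000156). The *lin-29* libraries all lay above wild type. *ceh-20* (+0.84), *bar-1* (+0.83), *lit-1* (+0.68), *elt-3* (+0.60) and *unc-62* (+0.58) passed by less. The second fusogen gene *aff-1* (+0.55, adjusted p = 0.139), *ceh-16* (+0.46, 0.216), *egl-18* (+0.01) and *elt-1* (-0.17) did not pass. The number of higher seam members was 3 without *lin-29* replicate 3 or wild-type replicate 2, and 2 under quantile normalization.

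None of the 38 tested core cell cycle genes passed in either direction in limma, and their median difference was -0.04. At an unadjusted p under 0.05 there were 1 higher and 3 lower. The cyclin-dependent kinase inhibitor *cki-1* read 3.09, 3.16 and 4.82 against 3.59, 4.68 and 5.02 (+0.74, adjusted p = 0.31). The cyclin D gene *cyd-1* differed by 0.41 (adjusted p = 0.131) and its kinase *cdk-4* by -0.53 (0.101). Without *lin-29* replicate 1, 11 members were lower, with the lower-numbered libraries alone 7 were higher, and median-ratio scaling gave 4 lower. As background, most dividing cells of a young adult are in the germ line.

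Enzymes that modify and cross-link collagen were mostly higher, 14 of 20 tested with 1 lower (median 1.54). The tyrosinase gene *tyr-2* read 2.14, 1.73 and 2.82 in wild type and 4.94, 5.72 and 5.65 in *lin-29* libraries, an increase of 3.21 (SE 0.41, limma adjusted p = 0.000371). *skpo-2*, a peroxidase gene, rose by 3.20 and *bli-5*, a protease inhibitor gene of cuticle formation, by 2.73. *tyr-4* read 3.94, 3.72 and 4.30 against 6.23, 6.53 and 6.48 (+2.42, adjusted p = 1.9e-06). Its differences from the same wild-type libraries were 1.73 for *mab-10* and 2.19 for *ddx-23* mutants.

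Other structural proteins of the cuticle and epidermis followed. Of 26 tested cuticlins, which are insoluble cuticle proteins, 8 were higher (median 1.02), but this count ranged from 3 without *lin-29* replicate 2 or 3 to 18 without *lin-29* replicate 1. *cut-2* read 1.58, 1.2 and 4.11 against 5.66, 8.13 and 8.47 (+5.12, adjusted p = 0.00969). Of 20 genes of epidermal attachment and intermediate filaments, which tie muscle to cuticle through the epidermis, 11 were higher, among them *mua-3* (+2.05), *mua-6* (+1.74), *let-805* (+1.59) and *mup-4* (+1.41). Of the 58 tested *abu* and *pqn* genes, which encode proteins rich in glutamine and asparagine and of which several are known from the cuticle of the pharynx, 27 were higher. Pharyngeal markers had 1 of 7 members higher (*tnt-4*), and their summed level was 73.1 to 126 FPKM in wild type and 114.8 to 234.5 FPKM in *lin-29* libraries, ranges that overlap. The part of the pharyngeal level in the *abu* and *pqn* values was not tested. Within them the 10 tested *abu* genes, a subset chosen after its values were seen, were all higher, with differences from 2.79 to 4.66. The 10 *abu* genes summed to 6.17, 2.15 and 9.98 FPKM in wild type and 115.6, 313 and 262 FPKM in *lin-29* libraries. The *idp* genes, also chosen after their values were seen, had 20 of 26 members higher (median 1.84). Of 26 basement membrane and matrix genes 9 were higher, led by the ADAMTS protease gene *adt-1* (+2.74).

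Markers of the hypodermis moved with these groups, but they were mostly genes of the families set apart above. Of 10 tested hypodermal markers 6 were higher and none lower, and their summed level was 134 to 254 FPKM in wild type and 290 to 842 FPKM in *lin-29* libraries. The higher ones were the cuticle collagen genes *dpy-7*, *rol-6* and *sqt-3*, *wrt-2* and *che-14* of the hedgehog-related and Patched-related families, and the GATA factor gene *elt-3*. How far that level takes part in the changes of cuticle genes was not tested.

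**Figure D3:**
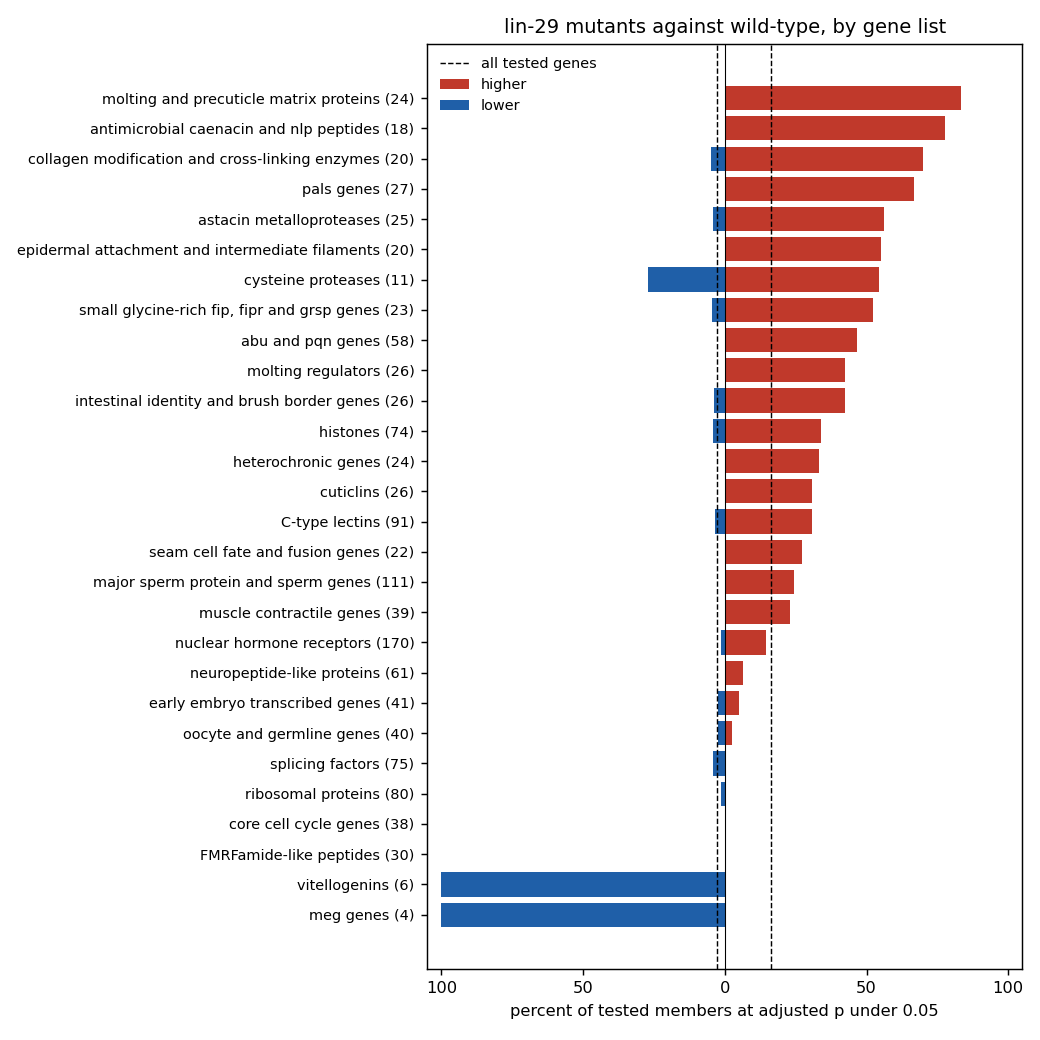
Percent of tested members of each gene group at an adjusted p under 0.05, with members lower in *lin-29* mutants drawn to the left of 0 and members higher to the right, and the value over all tested genes (16.3% higher, 2.73% lower) for scale. Among the groups drawn, the molting matrix, antimicrobial peptide and collagen modification groups reach furthest to the right and the vitellogenins and *meg* genes furthest to the left. The *pals* and *meg* groups were chosen after their values were seen.

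Antimicrobial peptides were among the most elevated products. The caenacins and the related *nlp* peptides are secreted by the epidermis after fungal infection and wounding. Of 18 tested members 14 were higher and none lower (median 2.41). *nlp-34* read 3.10, 3.09 and 5.21 in wild type and 8.18, 9.74 and 9.85 in *lin-29* libraries, from a mean of 17 to 689 FPKM, an increase of 5.46 (SE 0.84, limma adjusted p = 0.00121). *cnc-4* read 2.0, 2.71 and 5.04 against 7.03, 8.52 and 8.81 and rose by 4.87. The *nlp-34*, *nlp-31*, *nlp-30* and *nlp-29* genes, which lie side by side on chromosome V, were all called higher.

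The same peptide list had median differences of 1.58 for *mab-10* and 2.38 for *ddx-23* mutants, each against the same wild-type libraries. *nlp-34* stood 6.45 above wild type in *ddx-23* mutants, and the contrast with *lin-29* mutants was -0.99 (adjusted p = 0.428). The number of higher members in *lin-29* mutants was 8 when any 1 of *lin-29* replicates 2 and 3 and wild-type replicate 2 was left out, and 9 when wild-type replicate 1 was. The small glycine-rich *fip*, *fipr* and *grsp* genes had 12 of 23 members higher and 1 lower. *fip-6* read 2.97, 2.72 and 2.17 against 7.21, 7.87 and 7.60 (+4.94), and *fipr-13* fell by 2.49.

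Genes of the intracellular pathogen response rose in *lin-29* mutants. This response, known in *C. elegans* for infection of the intestine by microsporidia and viruses, includes many *pals* genes and a ubiquitin ligase complex. Both groups were chosen after their values were seen, so their counts are a description. Of 27 tested *pals* genes 18 were higher and none lower (median 1.63), and of 11 other genes of the response 9 were higher (median 2.04). With 1 library left out the counts stayed between 17 and 19 and between 7 and 10. Quantile normalization gave 2 *pals* genes lower, and a filter of 5 FPKM left 5 higher.

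*pals-14* read 0.84, 0.30 and 0.54 in wild type and 3.87, 5.60 and 5.33 in *lin-29* libraries and rose by 4.38 (SE 0.47, limma adjusted p = 0.000135). *pals-5*, the usual reporter gene of the response, read 0.11, 0.00 and 0.12 against 1.97, 2.76 and 2.37 and rose by 2.29 (adjusted p = 6.79e-05). *eol-1* read 0.34, 0.23 and 0.77 against 4.05, 5.13 and 4.61, from a mean of 0.383 to 24.3 FPKM, and rose by 4.15 (adjusted p = 1.25e-05). In each of these the *lin-29* libraries lay far above all wild-type libraries.

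Among subunits of the ubiquitin ligase, *skr-5* rose by 2.43, *skr-4* by 2.04, *rcs-1* by 1.38, *skr-3* by 0.96 and the cullin gene *cul-6* by 0.65. The *skr-5* call was lost when any 1 of wild-type replicates 1 and 2 and *lin-29* replicates 2 and 3 was left out. *pals-22* and *pals-25*, which encode an antagonistic pair of regulators of the response, did not pass (+0.07, adjusted p = 0.887, and +0.23, adjusted p = 0.413). The regulators *pnp-1* (+1.38, adjusted p = 0.0852) and *zip-1* (+0.80, 0.0712) did not pass either.

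The *pals* genes were also set beside those of the other mutants, as a description. Their median difference from wild type was 0.11 for *mab-10* and -0.02 for *ddx-23* mutants. In the direct contrasts 17 of the 27 were higher in *lin-29* than in *mab-10* mutants (over all tested genes, 7.28%) and 18 were higher than in *ddx-23* mutants (14.2%), with none lower. The response genes were chosen after their *lin-29* values were seen. Low ones can pass the filter through the *lin-29* libraries alone, so part of this excess is built in. *eol-1* stood 4.04 above *mab-10* mutants (adjusted p = 2.41e-05) and 4.44 above *ddx-23* mutants (7.77e-06).

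**Figure D4:**
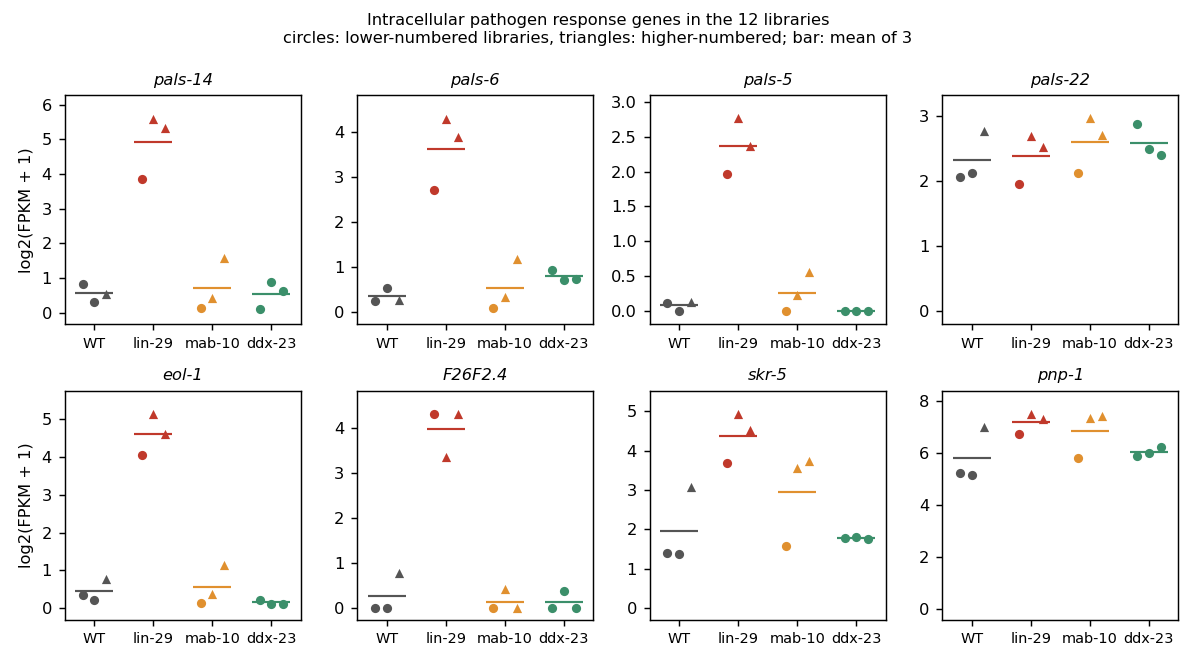
Levels, log2(FPKM + 1), of intracellular pathogen response genes in the 12 libraries by genotype, with circles for lower-numbered and triangles for higher-numbered libraries and a bar at the mean of 3. *pals-14*, *pals-6*, *pals-5*, *eol-1* and *F26F2.4* stand highest in the *lin-29* libraries, while *pals-22* and *pnp-1* overlap between genotypes.

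Other classes linked to defence were also raised in part. Of 91 tested C-type lectins, secreted sugar-binding proteins, 28 were higher and 3 lower (median 0.44). *clec-180* read 0.50, 0.24 and 0.93 against 3.70, 4.02 and 4.84 and rose by 3.63 (limma adjusted p = 5.61e-05). *clec-97* went the other way, from 4.18, 4.23 and 3.29 to 0.51, 1.22 and 1.63, and fell by 2.78 (adjusted p = 0.000171). Of 38 lysozymes, saposin-like and other antimicrobial genes 11 were higher and none lower. The saposin-like gene *spp-13* read 1.03, 0.37 and 1.01 against 4.04, 5.26 and 5.71 (+4.20), and the invertebrate lysozyme genes *ilys-2* and *ilys-3* rose by 3.80 and 3.58. For *ilys-2* wild-type replicate 3, at 3.83, was close to *lin-29* replicate 1, at 3.90. Of 62 CUB-like and infection response genes 19 were higher and 1 lower.

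Aspartyl and cysteine proteases, lists not limited to digestive enzymes, changed in both directions. Of 11 tested aspartyl proteases 6 were higher and 1 lower (*asp-4*, -0.82), and all 6 were also higher than in either other mutant. *asp-1*, an abundant intestinal protease gene, read 10.75, 10.63 and 10.96 in wild type and 11.68, 11.93 and 11.83 in *lin-29* libraries, from a mean of 1766 to 3614 FPKM (+1.04, SE 0.10, limma adjusted p = 4.53e-05). *asp-6* rose by 1.15 and *asp-3* by 0.99, and *asp-17*, at 0.88, 0.69 and 0.72 against 2.05, 3.12 and 3.17, rose by 2.02. The groups did not overlap for any of these. Of 11 cysteine proteases 6 were higher and 3 lower, *cpz-1* (-0.82), *cpl-1* (-0.54) and *cpr-9* (-0.49). *cpr-1* read 8.42, 7.51 and 9.08 against 10.61, 10.81 and 10.46 (+2.29, adjusted p = 0.000748). *cpr-4* rose by 1.61 pooled but by only 0.24 within the higher-numbered libraries, where wild-type replicate 3 was at 9.18.

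Intestinal identity and brush border genes gave 11 higher and 1 lower of 26 tested (median 0.67). Intermediate filament genes of the intestinal terminal web were among them. *ifp-1* read 1.42, 1.52 and 2.15 against 3.67, 3.75 and 3.73 and rose by 2.03 (limma adjusted p = 0.00413), *ifc-1* rose by 1.71 and *ifd-1* by 1.22. The calls on *ifc-1* and *ifd-1* were lost under quantile normalization.

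All 6 vitellogenins, the yolk proteins that the adult intestine secretes for the oocytes, were lower in *lin-29* mutants. Their median difference was -1.95, and the 6 genes together summed to 27520, 27351 and 20520 FPKM in wild type and 11179, 9858 and 9480 FPKM in *lin-29* libraries. *vit-5* read 12.29, 12.28 and 12.21 against 10.82, 10.61 and 10.62, from a mean of 4907 to 1649 FPKM, and fell by 1.58 (SE 0.13, limma adjusted p = 2.21e-05). *vit-1* read 11.38, 11.37 and 9.77 against 8.53, 7.50 and 7.09 and fell by 3.13 (adjusted p = 0.00114). Wild-type replicate 3 was the lowest wild-type library for *vit-1*, *vit-3* and *vit-4*, and still lay above every *lin-29* library.

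The drop was of unequal size among the members. *vit-4* fell by 2.94, *vit-3* by 2.33, *vit-6* by 0.80 and *vit-2* by 0.64. The call on *vit-3* (adjusted p = 0.0141) was lost when any 1 of wild-type replicates 1 and 2 and *lin-29* replicates 2 and 3 was left out. *vit-3*, *vit-4* and *vit-5* have closely similar sequences, as do *vit-1* and *vit-2*, so reads may be split between them and the single values are less certain than the sum. *vit-5* was also lower than in *mab-10* mutants by 1.03 (limma adjusted p = 0.000546, with 2.13% of all tested genes lower). It was lower than in *ddx-23* mutants by 1.28 (9.67e-05, with 6.99%). *vit-1* and *vit-2* also passed in both contrasts, *vit-6* against *ddx-23* mutants alone, and *vit-3* and *vit-4* in neither. Against wild type, *vit-1*, *vit-3* and *vit-4* differed by -1.29, -1.34 and -1.20 in *mab-10* mutants and by -1.25, -0.94 and -1.20 in *ddx-23* mutants. None of these passed. Those of *vit-2*, *vit-5* and *vit-6* lay between -0.54 and 0.01 and did not pass either. Of the 10 intestinal markers 4 were higher (*asp-1*, *elt-2*, *ges-1* and *ifb-2*) and 4 lower (*vit-2*, *vit-5*, *vit-6* and the metallothionein gene *mtl-2*), so the intestine's marker genes did not move one way.

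Some single genes fell sharply with little spread between replicates. *eef-1B.2*, a gene of the elongation factor 1B family on chromosome IV (15037331 to 15039551 in WBcel235), read 9.32, 9.31 and 9.34 in wild type and 5.58, 5.26 and 5.44 in *lin-29* libraries. Mean FPKM went from 640 to 42.3, and it fell by 3.90 (SE 0.09, limma adjusted p = 1.22e-09). Its differences from wild type were -0.08 for *mab-10* and -0.26 for *ddx-23* mutants. *C35B1.4*, also on chromosome IV (4079814 to 4080146), read 7.06, 6.91 and 6.87 against 2.3, 2.91 and 2.33 and fell by 4.43 (adjusted p = 1.15e-07). The groups did not overlap for either gene.

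The astacin gene *nas-20* read 4.85, 4.70 and 4.47 in wild type and 0.67, 0.79 and 1.0 in *lin-29* libraries and fell by 3.86 (limma adjusted p = 1.09e-05), against increases in 14 others of its family. *F42G4.2* read 4.78, 4.79 and 5.24 against 1.93, 1.37 and 2.06 (-3.15), and its difference in *mab-10* mutants was -4.06. *T12B5.15* fell by 3.99, *F41E6.15* by 3.21 and *Y45F10C.4* by 2.65. Among abundant genes *C45B2.1* fell by 1.74 and *spex-3* by 1.58, while the calls on *F22H10.10* (-1.90) and *F23A7.8* (-1.46) were lost without any 1 of several libraries.

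Some histone entries that share a symbol differed in sign, and others did not. The entries of *his-45* went in opposite directions, by -2.49 and 2.19. The symbol *his-58* belongs to 2 entries in the table, of which the entry called lower read 3.85, 4.81 and 4.75 in wild type and 0.00 in every *lin-29* library, while the other, which did not pass, read 3.80, 3.03 and 0.00 against 5.28, 4.74 and 4.99 (+2.73, limma adjusted p = 0.0811). The 3 tested entries of *his-14* were all higher by 2.18 and the 4 of *his-51* by 1.93, with identical values within each symbol. Histone genes exist as near-identical copies, so such reads may be assigned to either, and these calls are uncertain. Of 74 tested histone entries 25 were higher and 3 lower.

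**Figure D5:**
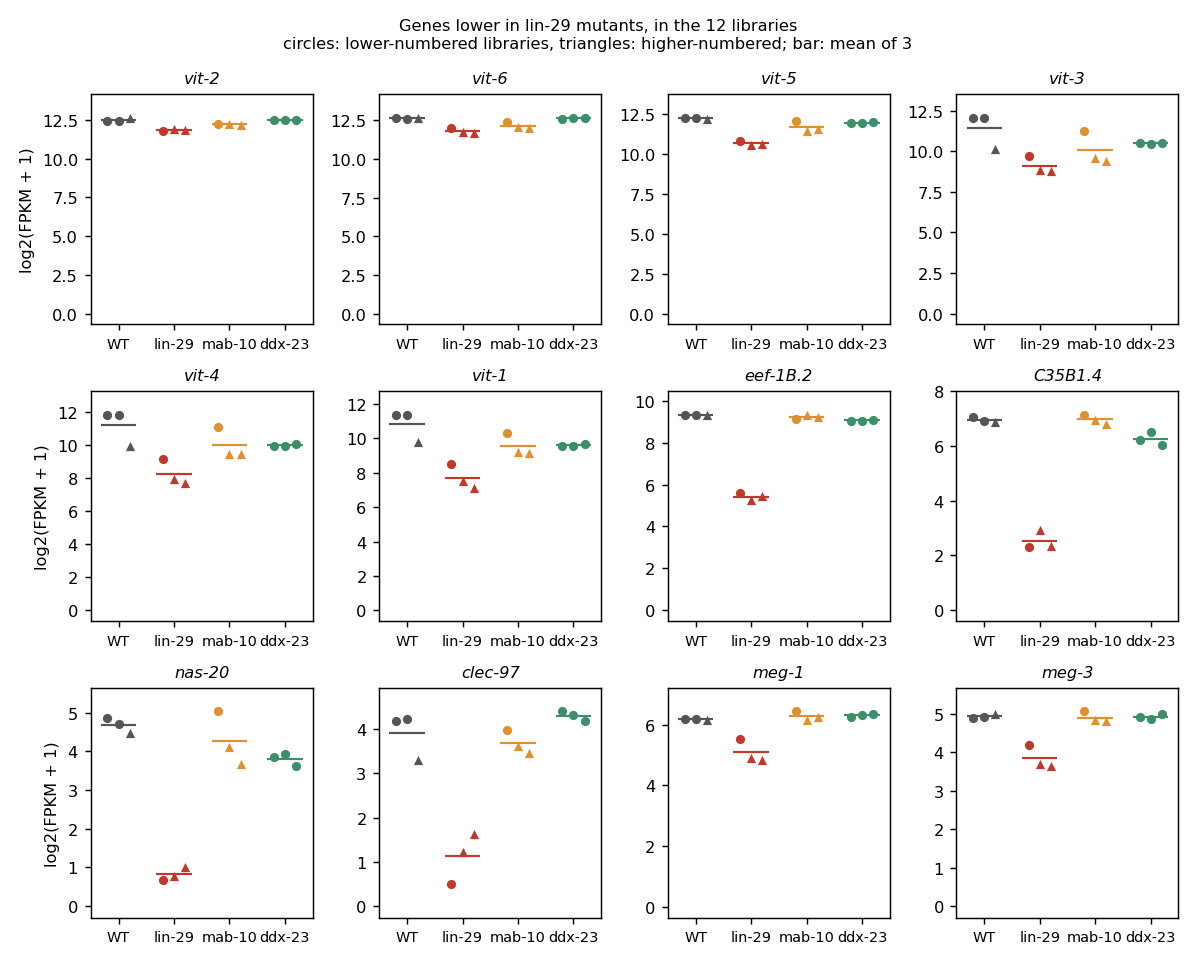
Levels, log2(FPKM + 1), of 12 genes lower in *lin-29* mutants in the 12 libraries by genotype, with circles for lower-numbered and triangles for higher-numbered libraries and a bar at the mean of 3. *eef-1B.2* and *C35B1.4* are low in the *lin-29* libraries alone, and wild-type replicate 3 lies below replicates 1 and 2 for *vit-1*, *vit-3* and *vit-4*.

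The listed oocyte and germline genes changed little apart from single members, and sperm genes are given separately below. Of 40 tested oocyte and germline genes 1 was higher and 1 lower, and none of the 11 oocyte markers passed (summed level 5014 to 5956 FPKM in wild type and 4834 to 6124 FPKM in *lin-29* libraries). The gene that was higher was *puf-6*, of the Pumilio family of RNA-binding proteins, at 2.98, 2.95 and 3.38 in wild type and 7.22, 6.67 and 6.75 in *lin-29* libraries (+3.77, limma adjusted p = 1.3e-07). In *mab-10* mutants the difference was 4.04. Its close relative *puf-7* was the lower one (-0.49, adjusted p = 0.0275), and since these copies are much alike their values are uncertain.

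The 4 *meg* genes, which encode disordered proteins of the germ granules of the embryo, were all lower. They were chosen after their values were seen. *meg-1* read 6.19, 6.19 and 6.15 in wild type and 5.54, 4.92 and 4.82 in *lin-29* libraries and fell by 1.08 (limma adjusted p = 0.000808). *meg-3* fell by 1.09, *meg-2* by 1.01 and *meg-4* by 0.86, and all 4 were also lower than in either other mutant. Among 20 eggshell genes the chondroitin proteoglycan gene *cpg-7* was higher (+3.72) and *perm-2* (-0.59) and *perm-4* (-0.40) were lower. In 1 of the alternatives *perm-2* did not pass. Of 41 genes transcribed in early embryos 2 were higher and 1 lower.

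Sperm genes were higher in part. Of 111 tested members, among them the major sperm proteins, 27 were higher and none lower (median 0.74), against 16.3% higher over all tested genes. The 30 sperm markers summed to 944 to 1453 FPKM in wild type and 1698 to 2251 FPKM in *lin-29* libraries, and 9 of them were higher. This count was sensitive to the libraries, with 8 of the 111 higher when wild-type replicate 2 was left out, 9 without *lin-29* replicate 3, 17 without *lin-29* replicate 2 and 17 after median-ratio scaling. In the contrast with *mab-10* mutants 44 of the 111 were higher, against 7.28% over all tested genes. The largest increases were in *msd-1* (an entry at 0 in every wild-type library and at 4.56, 3.90 and 3.76 in *lin-29* libraries) and in *nspb-10* (0 against 3.11, 4.70 and 2.68). The *msd-1* call (adjusted p = 0.0208) was lost when any 1 of wild-type replicates 1 and 2 and *lin-29* replicates 2 and 3 was left out. It was also lost with the lower-numbered libraries alone, which hold 1 *lin-29* library.

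Among genes of lipid and small-molecule metabolism none was lower. Of 115 tested fatty acid and lipid genes 33 were higher (28.7%, against 16.3% of all tested genes), with a median of 0.33. *acdh-6*, an acyl-CoA dehydrogenase gene, read 0.38, 0.08 and 0.51 against 2.06, 3.51 and 3.63 (+2.75, limma adjusted p = 0.00236). *acs-20*, a fatty acyl-CoA synthetase gene with a role in the cuticle barrier, rose by 2.17, the elongase gene *elo-4* by 1.85 and the palmitoyl-CoA desaturase gene *fat-5* by 1.81. Of 137 cytochrome P450, UDP-glucuronosyltransferase and glutathione S-transferase genes 27 were higher (19.7%, near the share of all tested genes), among them *cyp-13A5* (+2.18) and *ugt-25* (+2.09). Of 46 glycolysis and tricarboxylic acid cycle genes 4 were higher (8.70%, below that share).

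Among 22 osmotic stress response genes 7 were higher and none lower, against 16.3% higher over all tested genes. The 7 include *ptr-23* (+2.21), of the Patched-related family set apart above. *osm-7*, which encodes a secreted protein of the epidermis, read 2.23, 1.86 and 2.59 against 4.07, 4.86 and 4.97 (+2.41, limma adjusted p = 0.000296). *osm-8*, a mucin-like gene, rose by 1.93. Of 68 vacuolar ATPase and excretory genes 22 were higher, led by the bestrophin channel gene *best-1* (+2.44). The heat shock and unfolded protein response list had 4 of 60 members higher, a share below the 16.3% of all tested genes.

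Transcription factor families were touched at a few members. Of 170 tested nuclear hormone receptors 25 were higher and 2 lower (median 0.43), and the share higher was near the 16.3% of all tested genes. The largest increases were in *nhr-85* (+1.63), *nhr-63* (+1.45), *nhr-80* (+1.39) and *nhr-50* (+1.37). *nhr-80*, a receptor that controls fatty acid desaturases, read 2.58, 2.53 and 2.47 against 4.02, 4.09 and 3.62 (limma adjusted p = 0.000779). Of 80 homeobox genes 6 were higher, a share below that of all tested genes, among them *mab-5* (+0.99). Another 2 were lower, with *ceh-82* at -1.38. Signalling lists moved little. The TGF-beta pathway of body size had 3 of 21 members higher, *sma-4* (+0.96), *sma-3* (+0.70) and *sma-6* (+0.59, at -0.05 under quantile normalization), and the Wnt pathway had 2 of 30. Neither share was larger than the 16.3% of all tested genes.

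Secreted peptides of the insulin family gave 4 higher of 28, a share near the 16.3% of all tested genes. *ins-4* read 2.04, 0.92 and 1.98 against 3.81, 4.01 and 4.61 (+2.5, limma adjusted p = 0.0103), and *ins-33* (+1.77), *ins-20* (+1.53) and *ins-27* (+1.52) also rose. None of 30 FMRFamide-like peptide genes passed, at an adjusted or an unadjusted p, nor did any fall among the 61 neuropeptide-like genes, of which 4 rose. The synaptic list had 1 of 34 members higher. For the neuropeptide-like and synaptic lists the share higher was below that of all tested genes. Neuronal markers summed to 344 to 526 FPKM in wild type and 429 to 542 FPKM in *lin-29* libraries, ranges that overlap. Muscle contractile genes gave 9 higher of 39 (median 0.42), against 16.3% of all tested genes, led by the troponin T gene *tnt-4* (+1.99). Of the 9 body muscle markers 3 were higher (*lev-11*, *myo-3* and *unc-89*). The 9 markers summed to 1749 to 2102 FPKM in wild type and 1996 to 2679 FPKM in *lin-29* libraries, ranges that overlap.

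Core cellular machinery gave few calls. Of 80 ribosomal protein genes 1 was lower (*rpl-11.1*, -0.41) and none higher, none of 31 proteasome subunit genes passed (4 were higher at an unadjusted p under 0.05 in limma), and of 75 splicing factor genes 3 were lower by at most 0.43 and none higher. Their median differences were -0.14, 0.01 and -0.11. These are no larger than the shift of the whole table between scalings. Of the 14 tested genes of the mitochondrial chromosome, the list of mitochondrially encoded genes matched 3 by symbol (*COX3*, *ND1* and *ND6*), and none of these passed, at an adjusted or an unadjusted p.

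Called genes were spread over all nuclear chromosomes, unevenly. The share of tested genes called higher was 15.6% on chromosome V, 13.1% on X, 12.3% on II, 10.5% on IV, 7.11% on III and 7.0% on I. The share called lower was 2.5% on X, 50 of the 120 genes, against at most 0.922% elsewhere. Within 1 megabase to either side of *lin-29* 39 of 323 tested genes were called higher (12.1%) and 3 lower (0.929%). Within 2 megabases 87 of 622 were called higher (13.99%) and 5 lower (0.804%). Over all tested genes the shares were 11.1% and 0.845%. The share called higher in the wider window was thus above that of all tested genes and of chromosome II, which holds *lin-29*. Whether this excess is more than a random set of neighbours would give was not tested.

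A small part of the genes called higher lay in runs. There were 22 runs of at least 4 adjacent tested genes all called higher, with 112 of the 1577 genes in all. How many such runs a random order would give was not tested. One run on chromosome I held 8 *pals* genes from *pals-2* to *pals-14*. On chromosome V the F26F2 genes (20559162 to 20574152), the *nlp-34* to *nlp-29* peptides (3978825 to 3984847), 5 *idpc* genes beside *pqn-63*, *col-146* and *col-147* (9616031 to 9633338) and *pals-37*, *pals-39* and *pals-38* (12431370 to 12450002) each formed a run. On X a run held *lpr-3* to *lpr-6* with the claudin gene *clc-1* (11047446 to 11066811). Some runs hold copies with identical values, and 71 tested genes share all their values with another, so the number of separate genes in such runs is uncertain.

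Set beside the other mutants, *lin-29* mutants were higher than *mab-10* mutants in 1033 genes (7.28%) and lower in 302 (2.13%). They were higher than *ddx-23* mutants in 2020 genes (14.2%) and lower in 992 (6.99%). All *ddx-23* libraries are in the lower number range and 2 of the 3 *lin-29* libraries in the higher one, so the pooled contrast with *ddx-23* mixes genotype with number range. With the number range in the model it gave 1766 genes higher and 1403 lower, and with the lower-numbered libraries alone 1960 and 1374. The same model gave 1900 genes higher and 848 lower against *mab-10* mutants. The counts also rested on single libraries. Without *lin-29* replicate 1 the lower counts were 1057 against *mab-10* and 1962 against *ddx-23* mutants. Without *lin-29* replicate 2 the higher counts were 676 and 1207, and without *lin-29* replicate 3 they were 579 and 1220. Leaving out *ddx-23* replicate 1, 2 or 3 gave 1337, 1225 and 1247 genes higher than in *ddx-23* mutants, and leaving out *mab-10* replicate 2 or 3 gave 185 and 150 genes lower than in *mab-10* mutants. That last count was 197 without *ddx-23* replicate 3, which shares in the estimate of spread. Molting and precuticle matrix genes were higher in *lin-29* than in *ddx-23* mutants in 22 of 24 cases and than in *mab-10* mutants in 9. Their median difference from the shared wild-type libraries was 2.44 for *lin-29*, 0.98 for *mab-10* and -0.52 for *ddx-23* mutants. Of the 26 cuticlins none was higher than in *mab-10* mutants and 10 were higher than in *ddx-23* mutants.

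Of the 14199 tested genes 2699 belonged to any of the lists used here, and these held 474 of the genes called higher and 33 of those called lower. The other called genes fell outside every list, among them *C27C7.1*, *C38D9.2* and *C35B1.4*.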

How the data were processed

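RNA from pools of whole young adults was sequenced in 12 libraries, 3 per genotype. Per the labels and the study's methods, the authors made NeoPrep libraries, aligned reads with STAR 2.5.3a to WBcel235 with WormBase gene models and quantified 46761 genes with RSEM 1.3.0. The deposited values are log2(FPKM + 1), with a pseudocount of 1 added by the authors; read totals are not given, and no count model was used. Here the 14199 genes with at least 1 FPKM in at least 3 libraries were fitted in 1 model of the 4 genotypes (8 residual degrees of freedom) with limma 3.58.1 (trend and robust options) in R 4.3.3, with Benjamini-Hochberg adjustment. Tables and figures were made with Python 3.11.15, numpy 2.4.6, pandas 2.3.3 and matplotlib 3.10.9. Calls needed an adjusted p under 0.05 with a difference over 1.

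Genes were named by rule: *lin-29* and *mab-10*, the 25 largest increases and 15 largest decreases, the 10 largest of each among genes of at least 100 FPKM, the 10 strongest genes that went from off to on or on to off, up to 4 members of each list, and all heterochronic, seam cell and cell cycle genes. Members and lists (58, of which 2, collagens and hedgehog-related genes, were set apart) were chosen with earlier results of these data known. A further 7 lists (*pals*, other pathogen response, *idp*, *meg*, *lpr*, autophagy and *abu* genes), and genes named to complete a family, marker list or run, were chosen after their values were seen. Of the 25 tested autophagy genes 2 were higher and 2 lower. Positions come from an Ensembl annotation of WBcel235, which may be of another release than the authors' and held 14156 of the tested genes. Alternatives were other pseudocounts, filters, scalings and variance options, the wild-type and *lin-29* libraries alone, a replicate block, library number ranges and leaving out each library.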

Additional observations from a re-analysis of the deposited data

How the results depend on the processing

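Over all tested genes the median, 0.19, was 0.22 with a pseudocount of 0.1 and 0.23 with 0.01, 0.12 without a filter and 0.11 with a filter of 5 FPKM, 0.0289 with median-ratio scaling, -0.14 with quantile normalization, 0.13 with the number range in the model and 0.0647 with the higher-numbered libraries alone. Quantile normalization gave 967 genes higher and 474 lower, with 67.1% of calls higher, 783 genes lower than in *mab-10* and 1795 lower than in *ddx-23* mutants. Genes called lower numbered 205 in the lower-numbered and 199 in the higher-numbered libraries alone, and 388 with no threshold on the difference. Against *mab-10* mutants the model with the number range gave 1900 higher and 848 lower, the lower-numbered libraries alone 537 lower and the higher-numbered libraries alone 985 lower. Among the named genes that passed, *sma-6* turned to -0.0453 under quantile normalization. The cause of these shifts was not tested.

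Leaving out each library in turn gave 1133 to 2180 genes higher and 92 to 189 lower, a share of 92.0% to 93.8% and a median of 0.14 to 0.26. The contrast with *mab-10* ranged over 579 to 1370 higher and 143 to 1057 lower, and that with *ddx-23* over 1207 to 2778 higher and 541 to 1962 lower. The replicate numbers did not pair the samples, since deviations of same-numbered libraries correlated at 0.313, -0.298 and 0.299. A replicate block gave 1713 genes higher and 123 lower.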
